A study of Mus musculus with 13 samples.

Results

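The distal acetylated RING1B regions are sites, away from the start of the annotated gene, where RING1B was mapped under H3K27ac with no H3K27me3 and no CBX8 listed. They were chosen from the peaks of RING1B replicate 2. A peak was taken when the authors' annotation placed it more than 5 kb from the start of the transcript assigned to it. It also had to share at least 1 bp with an H3K27ac peak of each replicate and no base with a peak of either H3K27me3 or either CBX8 library. Of 32918 RING1B replicate 2 peaks, 14495 were distal and 4717 of these lay under both H3K27ac lists. A further 1301 were removed because an H3K27me3 or CBX8 peak overlapped them, which left 3416 regions, 23.6% of the distal peaks and 10.4% of all. The presence or absence of the 4 proteins and marks is therefore what defined the regions and is not a result. A single list decided part of the choice, since CBX8 replicate 2 alone removed 322 peaks.

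The series mapped RING1B, CBX8, H3K27me3 and H3K27ac by chromatin immunoprecipitation and sequencing in wild-type olfactory basal cells of adult C57BL6 mice. These cells were sorted for c-KIT and grown on gelatin with EGF, FGF2, heparin, BMP4 and SB431542, an inhibitor of TGF-beta type I receptors. RING1B replicate 1 and H3K27me3 replicate 1 came from line 1 at passage 12. From line 2 came H3K27me3 replicate 2 at passage 11, H3K27ac replicate 1 at passage 13, and both RING1B replicate 2 and CBX8 replicate 1 at passage 19. CBX8 replicate 2 and H3K27ac replicate 2 came from line 3 at passage 14. No treatment or genotype was compared, so the 2 libraries of an antibody are the only replicates, and each pair came from different lines. Values below are the authors' fold enrichments of single peaks. Peaks of a library are not replicates, so differences between groups of peaks are given without a test. In bulk cultures of different lines, overlapping peaks do not show that RING1B and H3K27ac were on the same chromatin fibre or in the same cells. At the starts of the basal cell keratin genes Krt5 and Krt14, H3K27ac folds were 11.4 and 10.5, and 9.61 and 8.003. The Krt5 start also had an H3K27me3 peak in replicate 1 (2.84) and a RING1B peak in replicate 2 (4.51). The start of Kit, the gene of the sorted surface receptor, had an H3K27ac peak in replicate 2 only (2.45). It had H3K27me3 folds of 4.70 and 4.05, RING1B folds of 10.4 and 5.12 and a CBX8 peak in replicate 2 only (9.56).

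RING1B is the ubiquitin ligase of Polycomb repressive complex 1 (PRC1), which marks histone H2A. Canonical PRC1 carries a CBX subunit such as CBX8 that can read H3K27me3, the mark left by Polycomb repressive complex 2. Variant PRC1 carries RYBP or YAF2 in place of CBX and can be brought to chromatin without H3K27me3, for instance by KDM2B at unmethylated CpG islands. H3K27ac marks active promoters and enhancers and occupies the same lysine residue as H3K27me3.

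Sequence could be read only for the few regions that lay on a RefSeq start (GRCm38.p6, the assembly behind mm10). Although all regions were over 5 kb from the start in the authors' annotation, 389 (11.4%) lay within 5 kb of some RefSeq start, and 45 held one. Of those 45, 9 also had a RING1B replicate 1 peak. The starts of 4 long non-coding RNAs are shown because RING1B was listed there in both replicates and because they range from no CpG to a dense run. Each sequence is the stretch before the start that lies inside the RING1B replicate 2 peak, and capitals mark CpG dinucleotides, except in Gm44507, which has none and where capitals mark a match to the AP-1 motif TGANTCA.
Gm34507 (chr17:4908115-4908321, plus strand, region annotated to Arid1b): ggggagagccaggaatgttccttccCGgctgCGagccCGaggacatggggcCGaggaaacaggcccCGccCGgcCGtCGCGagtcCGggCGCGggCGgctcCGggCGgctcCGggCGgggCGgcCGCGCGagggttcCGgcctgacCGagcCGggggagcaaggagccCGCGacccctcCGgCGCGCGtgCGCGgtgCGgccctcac
6530409C15Rik (chr6:28215313-28215498, plus strand, region annotated to Zfp800): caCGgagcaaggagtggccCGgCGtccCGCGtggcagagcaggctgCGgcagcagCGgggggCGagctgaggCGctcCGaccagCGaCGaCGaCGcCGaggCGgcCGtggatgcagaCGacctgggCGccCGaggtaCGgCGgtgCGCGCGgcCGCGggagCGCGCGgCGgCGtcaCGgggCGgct
Gm19417 (chr4:97869010-97869179, minus strand, region annotated to Nfia): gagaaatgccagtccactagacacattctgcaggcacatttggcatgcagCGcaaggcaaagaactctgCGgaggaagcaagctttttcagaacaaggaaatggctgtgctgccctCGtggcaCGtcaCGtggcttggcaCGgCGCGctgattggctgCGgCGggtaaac
Gm44507 (chr7:98415616-98415703, minus strand, region annotated to Gucy2d): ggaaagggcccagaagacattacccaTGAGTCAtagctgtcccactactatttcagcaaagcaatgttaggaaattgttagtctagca

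The stretch at Gm34507 holds 33 CpGs in 207 bases at 79.7% G and C, and that at 6530409C15Rik holds 34 in 186 bases. The region at Gm34507 had RING1B folds of 10.1 and 3.79 (replicates 2 and 1) and H3K27ac folds of 14.1 and 15.2 (replicates 1 and 2). The stretch at Gm44507 has no CpG in 88 bases at 43.2% G and C, yet its region had RING1B folds of 9.32 and 7.32. These 4 were picked for their range: of the 8 such stretches at non-coding starts in both RING1B lists that were not very short, Gm44507 was the only 1 without a CpG.

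Windows from 250 bases before to 50 after a RefSeq start were then compared by the kind of RING1B peak over them. The 95 windows under a distal acetylated region had a median of 13 CpGs and 58.3% G and C. The 4234 windows under an acetylated RING1B peak near an annotated start had 27 CpGs and 65.7%, and all 32817 windows had 7 CpGs and 52.7%. A ratio of observed to expected CpG of at least 0.6, a usual mark of CpG islands, was met by 46.3% of the windows under a region, 88.4% of those under near-start peaks and 35.8% of all windows. Non-coding starts made up 72 of the 95, and 41.7% of these met the ratio, against 14.1% of all 11587 non-coding windows. The 14 windows under a region listed in both RING1B libraries had a median of 24.5 CpGs, and 10 of them (71.4%) met the ratio. Of 13 motifs searched on both strands, AP-1 (TGANTCA) was found in 14.7% of the 95 windows (14 windows), 7.8% of all windows and 3.7% of near-start windows. Among non-coding starts it was in 18.1% of the 72 windows under a region and 9.3% of all. Other motifs differed too, with GATA in 5.3% of the 95 windows and 11.2% of all, and the E-box CAGCTG in 22.1 and 16.3%. The TEAD motif (GGAATG) was found in 13.7% of the windows under a region and 14.7% of all, and the RUNX motif (TGTGGT) in 17.9% and 16.8%. These windows lie under 90 of the 3416 regions, so they do not describe the sequence of the other regions, which was not analysed here.

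RING1B was low and narrow at most of the regions. The fold in replicate 2 had a median of 4.27, with quartiles of 3.85 and 4.89 and a range from 2.23 to 25.9. The near-start acetylated peaks, which met the same overlap rule within 5 kb of a start (9558 peaks), had a median of 4.76. The 843 distal RING1B peaks under both H3K27me3 and both CBX8 lists with no H3K27ac had a median of 9.33. Median widths were 197, 265 and 485 bp in that order. All 14495 distal RING1B replicate 2 peaks had a median fold of 4.32 and a median width of 194 bp. Low and narrow peaks were thus common to the distal peaks of this library and not particular to the regions. A fold of at least 10 was reached by 32 regions (0.94%), 221 near-start peaks (2.31%) and 376 distal methylated peaks (44.6%). Folds came in steps: the 3416 regions held 712 distinct values, 165 regions shared the fold 4.21, and the 10 most common values covered 28.2% of the regions.

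The second RING1B library listed few of these sites. A RING1B replicate 1 peak overlapped 174 regions (5.09%), against 9.64% of all distal and 17.4% of all RING1B replicate 2 peaks. The exact Clopper-Pearson 95% interval of the 5.09%, 4.38 to 5.88%, covers counting error only. It takes peaks as independent, which neighbouring peaks need not be, and holds no spread between libraries or lines. The share was 12.5% for near-start acetylated peaks and 71.3% for distal methylated peaks with CBX8. Replicate 1 held 7578 peaks, fewer than replicate 2 and fewer than the near-start class, which limits these overlaps. RING1B replicate 1 came from line 1, which had an H3K27me3 library but no H3K27ac library. The distal methylated class thus had to carry H3K27me3 of line 1, while acetylation in line 1 is unknown for the acetylated classes. How far these limits bear on each class was not tested. The overlap depended on the fold. Of the regions, 1.85% overlapped replicate 1 at folds under 4, 2.29% at 4 to 5, 9.38% at 5 to 7, 34.8% at 7 to 10 and 75% (24 of 32) at 10 or more. Near-start peaks gave 4.43, 5.64, 13.4, 40.4 and 85.5% in the same bins, and distal methylated peaks 11.1, 25.5, 48.3, 70.6 and 93.1%. The regions thus had the lowest share of the 3 classes in every bin, a difference that was not tested. All distal replicate 2 peaks gave 2.50, 2.39, 12.0, 54.5 and 88.9%, so under a fold of 5 the regions were close to distal peaks in general. Folds were not matched within a bin, and the bin of 10 or more has no upper limit. Seen from the other library, 296 RING1B replicate 1 peaks met the same rule and 188 of them (63.5%) overlapped replicate 2, against 74.5% of distal and 82.7% of all replicate 1 peaks.

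**Figure D1:**
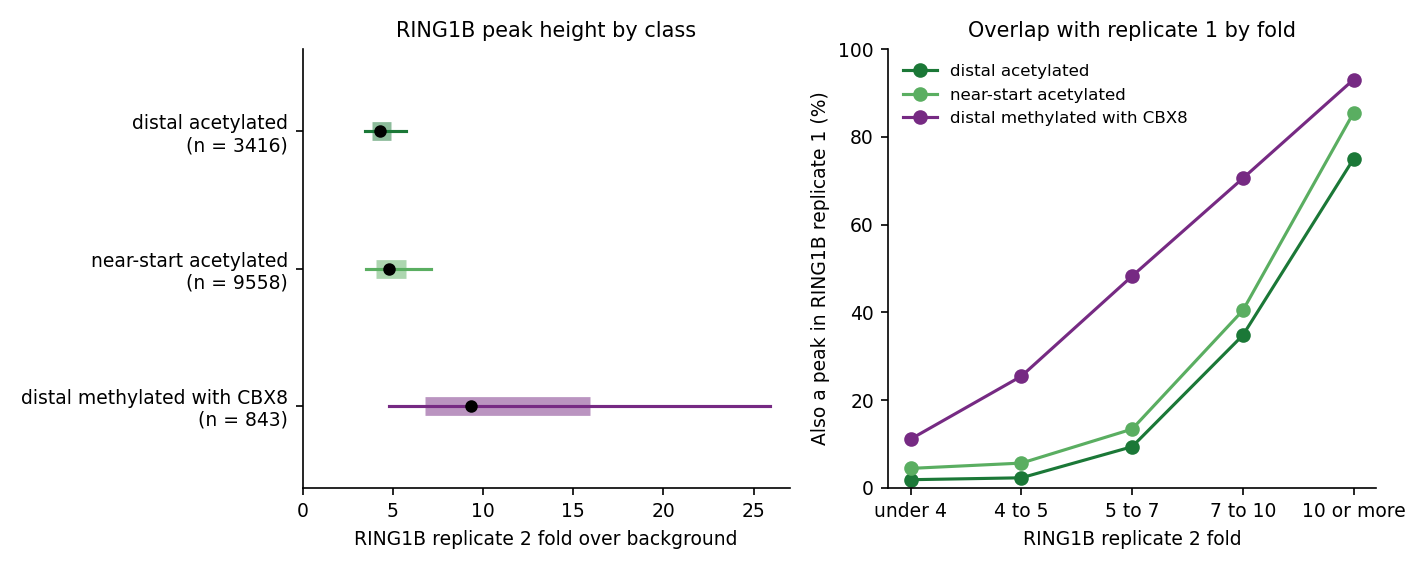
Left, RING1B replicate 2 fold in the 3 classes of peaks: dots are medians, thick bars the quartiles and thin lines the 10th to 90th percentiles, with medians of 4.27, 4.76 and 9.33 from top to bottom. Right, the percent of peaks of each class that overlap a RING1B replicate 1 peak, by replicate 2 fold; for the distal acetylated regions it runs from 1.85% to 75% and lies under the other classes in each bin.

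The 174 regions listed in both RING1B libraries were taller, wider and more often between genes than the other 3242. Their median RING1B replicate 2 fold was 5.85 against 4.27 and their median width 294 against 194 bp. H3K27ac folds over them were 7.58 and 7.35 (replicates 1 and 2), against 5.85 and 6.09. They lay in intergenic sequence in 60.3% of cases and in introns in 25.9%, against 41.4% and 44.1% for the rest. Their replicate 1 folds had a median of 5.20 and ran from 2.83 to 13.5. The distance to the annotated start hardly differed, with medians of 22254 and 21724 bp. Since detection in replicate 1 goes with the replicate 2 fold, these contrasts also hold a contrast of fold.

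The tallest region stood next to Sox2, which encodes a transcription factor of basal and other neural progenitors. Its RING1B fold in replicate 2 was 25.9 (chr3:34663732-34664517, 13737 bp downstream of the Sox2 start), and no replicate 1 peak overlapped it. H3K27ac folds over it were 14.2 and 12.8. Another pair of regions lay just before it, with folds of 7.22 and 4.89, and replicate 1 listed neither. The start of Sox2 itself had RING1B folds of 4.74 and 6.40 (replicates 1 and 2) and H3K27ac folds of 23.6 and 23.9, with no CBX8 or H3K27me3 peak within 2 kb. In replicate 2, RING1B was thus taller at the distal site than at the start, while H3K27ac was taller at the start in both libraries. In replicate 1 RING1B was listed only at the start.

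Of the 10 tallest regions, the 9 others had a RING1B peak in both libraries. The region of Maff, which encodes a small Maf protein that pairs with other bZIP factors, had RING1B folds of 16.5 and 8.45 (replicates 2 and 1) in an exon at 8951 bp. The region of Nr4a1, an immediate early nuclear receptor gene, had 13.1 and 6.60 at -19938 bp (negative distances are upstream), and 3 lower regions of Nr4a1, with folds from 4.61 to 5.87, were in replicate 2 only. The region of Meis1, which encodes a TALE homeodomain factor, had 13.8 and 4.55 at -7964 bp and lay beside another at -7591 bp with 6.23 and 4.33. The region of Tns3, which encodes the focal adhesion protein tensin 3, had 15.3 and 6.92 in an intron. The others were assigned to Mrgprg (16.2 and 6.53), Mir7677 (15.2 and 9.53), Wdr76 (15.0 and 11.0), Prodh (14.2 and 7.74) and 3110079O15Rik (14.1 and 12.2). Replicate 2 was the higher of the libraries at each of these 9, but they were chosen for their replicate 2 fold, which favours this. H3K27ac over them ran from low, 3.89 and 4.002 at 3110079O15Rik, to high, 12.1 and 15.4 at Nr4a1.

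Ranked by the lower of both RING1B folds, the list changed in part. The regions of 3110079O15Rik, Dlgap1 (11.4 and 13.5 in replicates 2 and 1), Wdr76 and Mir7677 led, followed by those of Cstad (9.18 and 11.4) and Bcor (12.6 and 9.13). At Dlgap1, which encodes a scaffold protein of synapses, at Cstad, at Bst1 (8.95 and 9.80) and at Rnf130 (8.60 and 8.77) the replicate 1 fold was the higher. H3K27ac at the Cstad region was near the low end, with folds of 2.68 and 2.69, whereas the Bst1 region had 12.1 and 11.4. Tall RING1B peaks of both libraries were therefore found over weak and strong acetylation alike.

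The regions under the strongest acetylation were at ordinary RING1B folds. The region of Foxa1, which encodes a forkhead pioneer factor, had H3K27ac folds of 25.1 and 25.7 with RING1B at 3.91 in an annotated downstream position. The region of Otx1, a homeodomain factor gene, had 21.2 and 20.004 (RING1B 6.32). None of the 10 regions with the highest lower H3K27ac fold had a RING1B replicate 1 peak. Their RING1B folds in replicate 2 ran from 2.64 to 6.32. A replicate 1 peak overlapped 5.09% of all regions, so 10 regions are too few to show a lower share under strong acetylation. Across all regions, those with a replicate 1 peak had the higher median H3K27ac folds, 7.58 and 7.35 against 5.85 and 6.09 (replicates 1 and 2).

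Across all distal acetylated peaks, few held a region, and those that did were stronger and wider. Among distal H3K27ac peaks present in both replicates and free of CBX8 and H3K27me3, 1720 of 44286 (3.88%) in replicate 1 and 1889 of 45552 (4.15%) in replicate 2 held a region. Median H3K27ac folds were 4.84 with a region and 3.15 without a RING1B replicate 2 peak in replicate 1, and 5.14 and 3.36 in replicate 2. Median widths were 1848 and 787 bp in replicate 1, and 1662 and 780 bp in replicate 2. By quintile of H3K27ac fold, the share holding a region went from 1.57% in the lowest to 9.63% in the highest in replicate 1, and from 2.20 to 9.71% in replicate 2. Wider peaks have more room for a region, so the regions were also counted per length. The highest quintile held 46.0 and 44.8 regions per Mb of acetylated peak, and the other quintiles 20.4 to 28.8 in replicate 1 and 27.3 to 36.7 in replicate 2. By width alone the share rose from 1.45% under 500 bp to 31.4% at 10 kb or more in replicate 1, while regions per Mb were 50.1 under 500 bp and 30.8 to 33.8 above. Per length, the regions were thus no denser in wider peaks, but were denser in the quintile of highest H3K27ac fold. RING1B replicate 1, whose peaks took no part in the choice, overlapped 0.045% of the lowest and 1.30% of the highest quintile in H3K27ac replicate 1, and 0.022 and 1.37% in replicate 2. These shares rest on 4 and 115 H3K27ac peaks in replicate 1, and 2 and 125 in replicate 2. They were not counted per length, and median widths were 577 and 1802 bp in replicate 1, and 511 and 1946 bp in replicate 2.

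**Figure D2:**
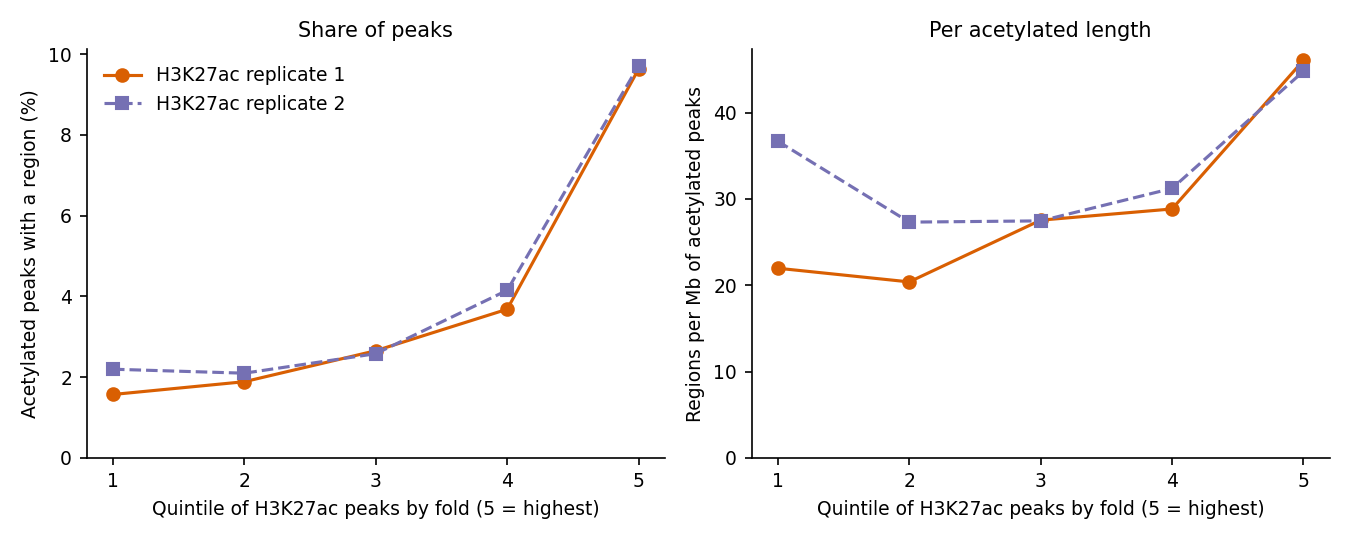
Distal H3K27ac peaks by quintile of their fold, for each H3K27ac replicate (circles and solid line, replicate 1; squares and broken line, replicate 2): left, the percent holding a distal acetylated RING1B region, and right, the regions per Mb of H3K27ac peak. The highest quintile stands above the others on both axes, at 9.63 and 9.71% and at 46.0 and 44.8 per Mb.

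Within the acetylated peaks, which the rule required and which are much wider than the regions, no preferred position was tested. Of the 3416 regions, 90.3% were wholly inside an H3K27ac replicate 1 peak and 86.4% inside a replicate 2 peak. The centre of the RING1B peak fell in the middle 50% of the H3K27ac peak for 56.6% and 54.4% of regions, where even placement along the peak would give about 50%. In replicate 1, 2954 H3K27ac peaks held the regions, and 2611 of these held 1. The fullest, a peak of 46045 bp that covers the start of Cdc42bpg on chromosome 19, held 9. The second, of 43200 bp at Ptpn1, a protein tyrosine phosphatase gene, held 8. The regions in the widest H3K27ac peaks by the narrower replicate, at Myh9, a gene of non-muscle myosin, Capzb, Shb and Capn12, had RING1B folds of 3.91 to 4.51 and no replicate 1 peak.

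By the authors' annotation, 1475 regions (43.2%) were in introns, 496 of them in first introns, and 1448 (42.4%) were intergenic. Exons held 290, 3′ UTRs 119, downstream positions 60 and 5′ UTRs 24. The distal methylated peaks with CBX8 were in introns in 21.2% and intergenic in 65.6% of cases. The median distance of a region to the annotated start was 21730 bp, with 736 regions at 5 to 10 kb, 1974 at 10 to 50 kb, 455 at 50 to 100 kb and 251 farther. Upstream positions made up 41.4%. The farthest region was 1207807 bp from the start assigned to it, that of Snord14d, with a fold of 4.51. The RING1B fold varied little with distance, from a median of 4.21 at 5 to 10 kb to 4.35 beyond 100 kb, and the share with a replicate 1 peak stayed between 4.35 and 5.42% over the 4 bins. The limit of 5 kb cuts through a continuous range. Just inside were the regions of Cebpb at -5007 bp (fold 5.12), AI839979 at -5006 bp (4.17) and Abca4 at 5006 bp (3.97), and just outside were peaks of Snrpd2 at 4996 bp (3.50), Spty2d1 at -4997 bp (3.38) and Mir192 at 5000 bp (2.77).

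The regions were assigned to 2316 of the 22517 genes that appear in the lists (10.3%). A single region was assigned to 1678 of these genes, 2 to 389 and 3 or more to 249, and 165 genes had a region listed in both RING1B libraries. The nearest start need not belong to the gene a region acts on.

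Bcor, with 15 regions, encodes the corepressor subunit of the variant PRC1 that holds PCGF1. Its regions formed 3 groups, and 11 of the 15 were annotated to introns. The 6 between -10296 and -6722 bp lay in 1 H3K27ac peak of folds 11.0 and 10.1, with RING1B folds of 3.91, 6.02, 12.6, 8.12, 4.27 and 4.51 in order towards the start. A replicate 1 peak overlapped the third and the fourth, with folds of 9.13 and 6.31. In the second group, 6 regions between 24367 and 32182 bp had folds from 3.91 to 7.82, and replicate 1 overlapped 1 of them (5.12). The last 3, from 73203 to 74422 bp, had folds from 3.61 to 4.81 and no replicate 1 peak. Bcor was assigned only 7 and 8 distal shared H3K27ac peaks, and held 15 of the 22 regions of the X chromosome. RING1B was also listed at its start in replicate 2 (7.22), with H3K27ac of 6.57 and 5.38 and no CBX8 or H3K27me3.

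Runx1, Myof and Ccnd1 had more distal acetylated peaks than Bcor. Runx1, which encodes a Runt domain factor, held 12 regions over 42 and 55 distal shared H3K27ac peaks, with folds of 2.51 to 5.12 and 1 region in replicate 1. Myof, a gene of membrane repair, held 10 over 35 and 33, none of them in replicate 1. Ccnd1, which encodes cyclin D1, held 9 over 13 and 17. The most distant of these, at -105294 bp, had RING1B folds of 5.64 and 7.02 (replicates 2 and 1) and was the only 1 of the 9 in both libraries. Irf2bp2, a corepressor gene, held 9, Med13l, of the Mediator kinase module, held 8 and Trim8, which encodes a ubiquitin ligase, held 8. The H3K27ac medians over the Trim8 regions, 14.8 and 15.4, are the folds of 1 H3K27ac peak that held 5 of the 8. The median RING1B fold of the Trim8 regions was low, at 3.51.

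**Figure D3:**
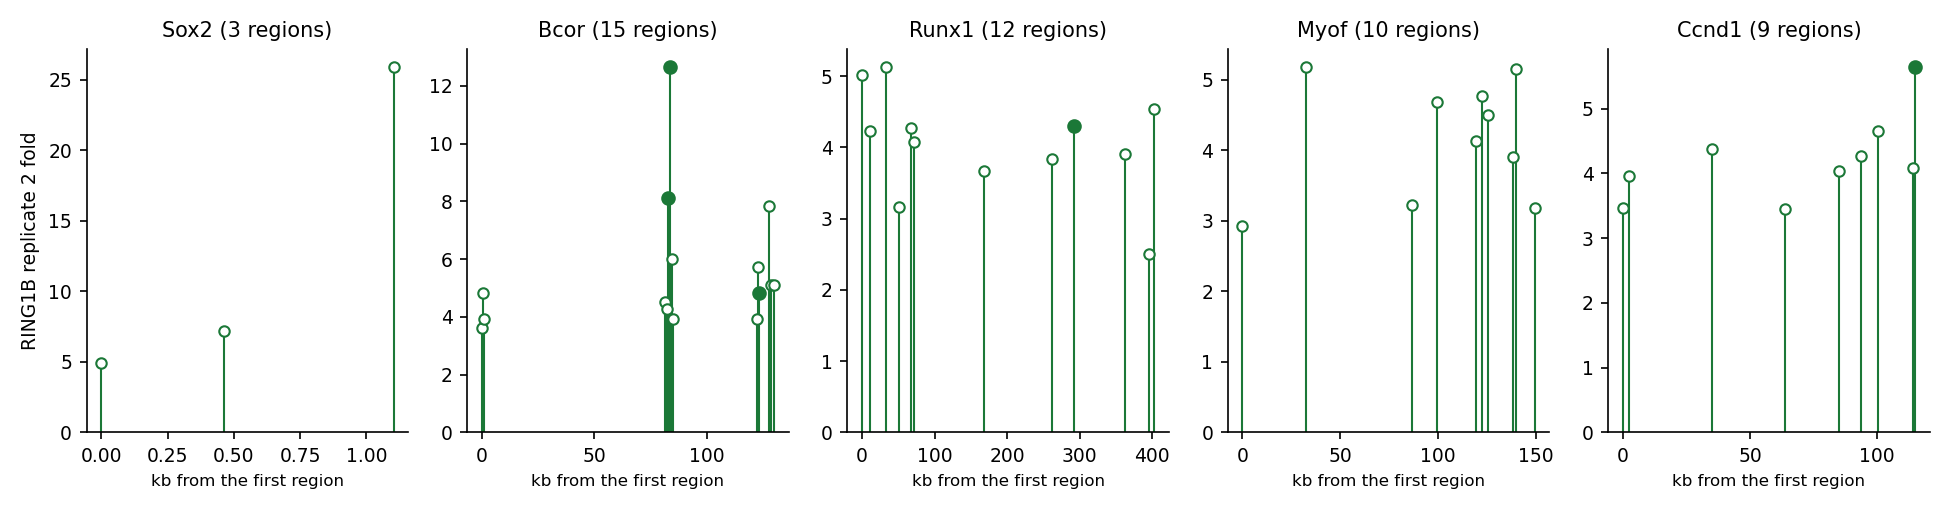
RING1B replicate 2 fold (vertical axis, a scale for each panel) of every distal acetylated region assigned to Sox2, Bcor, Runx1, Myof and Ccnd1, against its distance in kb along the chromosome from the first region of that gene. Filled dots are regions that a RING1B replicate 1 peak also overlaps (none at Sox2 and Myof, 3 at Bcor, 1 at Runx1 and 1 at Ccnd1).

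Genes of 16 lists were then counted, in each case among those with a distal shared H3K27ac peak, which include 2183 of the 2316 genes with a region. Of all 12319 such genes 17.7% had a region. The share rose with the number of distal H3K27ac peaks, from 8.61% of genes with 1 or 2 through 19.1% with 3 to 5, 28.4% with 6 to 10 and 42.3% with 11 to 20 to 60.2% with more, so the median number of peaks is given beside each list. No list was tested.

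Epithelial and progenitor transcription factors had the highest share, 17 of 32 (53.1%), with a median of 9.5 H3K27ac peaks per gene. Regions of 4 of the 17 genes were in both RING1B libraries. Nfia and Nfib, which encode nuclear factor I proteins, had regions with RING1B folds of 8.57 and 5.76, and 6.82 and 6.08 (replicates 2 and 1), the first of them at the Gm19417 start shown above. Grhl2, a gene of epithelial identity, had 3 regions with folds from 4.51 to 5.02, and Runx2 had 5 from 3.38 to 3.91, all in replicate 2 only. The list of olfactory basal cell genes had 5 of 16 (31.2%, median 4 peaks).

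Genes of AP-1 and the immediate early response had a region in 9 of 21 cases (42.9%) at a median of 3 peaks per gene. Besides Maff and Nr4a1, Fosl2, which encodes an AP-1 subunit, had 6 regions with folds from 2.93 to 5.18 in replicate 2 only. Klf4, a Krüppel-like factor gene of epithelia, had 3, the tallest with 5.55 and 6.94 (replicates 2 and 1). Atf3 (5.12), Fosb (3.83 and 3.97) and Ier2 (up to 5.42) had regions in replicate 2 only.

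Among signalling pathways, Wnt genes had a region in 15 of 32 cases (46.9%, median 5 peaks). The receptor gene Fzd7 had a fold of 6.92, the ligand gene Wnt7b 5.59 and the negative feedback gene Axin2 4.76. Tle3, which encodes a Groucho corepressor, had 4 regions, 1 of them in both libraries (6.05 and 4.96). Genes of EGF, FGF and ERK feedback, whose ligands were in the medium, had 12 of 33 (36.4%, median 7 peaks). Dusp5, a phosphatase gene that restrains ERK, had 2 regions in both libraries, with folds of 5.85 and 4.51, and 5.39 and 7.13. Hippo-YAP genes had 9 of 25 (36.0%, median 6 peaks), led by Nuak2 at 6.62 and by the protocadherin gene Fat1 at 6.53 and 4.52. Notch genes had 6 of 17 (35.3%, median 3 peaks), with the effector gene Hes1 at 4.54, 5309 bp from its start. BMP and TGF-beta genes had 8 of 35 (22.9%, median 5 peaks), none of them in both RING1B libraries, with the receptor gene Tgfbr1 at 5.47 and Id4 at 5.12. Inflammatory genes had 8 of 23 (34.8%, median 5 peaks), with Socs3 at 5.66 and Il1a at 5.24.

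Genes of the Polycomb group themselves had 7 of 24 (29.2%, median 4 peaks). Along with Bcor, Rybp, the variant PRC1 subunit gene, had 3 regions. That at -39519 bp had RING1B folds of 11.3 and 6.16 (replicates 2 and 1) over weak H3K27ac of 2.95 and 2.65, and the other two were in replicate 2 only. The start of Rybp had RING1B folds of 5.96 and 11.97 (replicates 1 and 2) with H3K27ac of 17.8 and 16.7, a CBX8 peak in replicate 2 (6.25) and H3K27me3 of 2.92 and 3.41. Single regions in replicate 2 only were assigned to Jarid2 (4.69), an accessory factor of Polycomb repressive complex 2, to Fbrsl1 (4.81), a relative of the variant PRC1 subunit AUTS2, and to the PRC1 subunit gene Pcgf5 (4.54).

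The lists of other functions had shares on both sides of that of all genes. Housekeeping genes had 3 of 15 (median 3 peaks), with Eef1a1 at 5.08 and 3.73, cell cycle genes 4 of 23 (17.4%, median 2 peaks), with Ccne1 at 6.62, and olfactory neuron lineage factors 3 of 15 (median 2 peaks). Ebf2, a factor of olfactory neuron differentiation, had a region with RING1B at 9.93 and H3K27ac of 8.45 and 8.66 at -44754 bp, in replicate 2 only. Its start was of another kind, with RING1B folds of 30.3 and 40.9, CBX8 of 37.1 and 67.9 and H3K27me3 of 5.19 and 6.06. Neuron genes had 5 of 18 (27.8%, median 2 peaks), sustentacular, gland and microvillous genes 1 of 11 (9.09%, median 2 peaks), and matrix and adhesion genes 9 of 34 (26.5%, median 5.5 peaks). The tallest of the last was at Col1a1, which encodes a collagen of mesenchyme, with RING1B of 11.0 and 6.15 at -19295 bp.

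**Figure D4:**
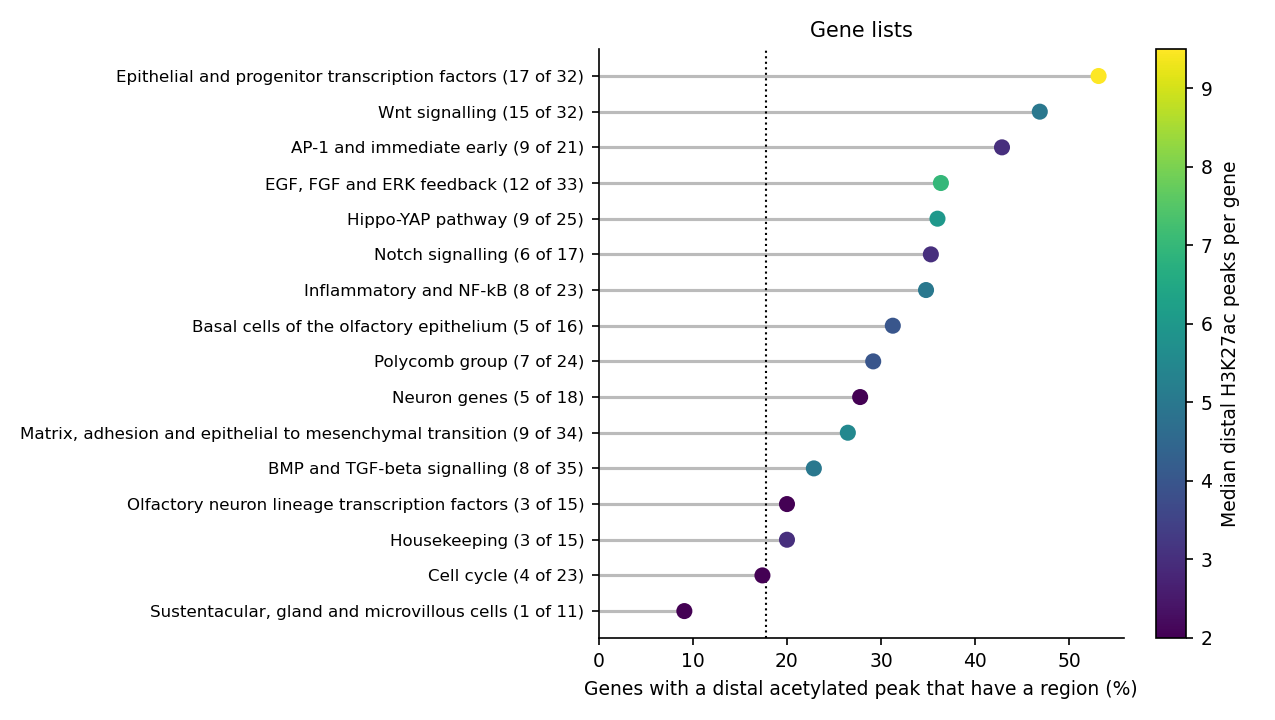
Percent of the genes of each list with a distal shared H3K27ac peak that have a distal acetylated RING1B region, with the counts in brackets; colour gives the median number of distal H3K27ac replicate 1 peaks per such gene, and the dotted line the 17.7% of all genes. The epithelial and progenitor factors stand highest at 53.1% and also have the most acetylated peaks per gene (9.5).

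The starts of genes with a region were mostly active. H3K27ac of both replicates lay within 2 kb of the start for 74.3% of the 2316 genes, against 65.7% of the 9232 genes with a distal H3K27ac peak and no region. RING1B replicate 2 was at the start of 52.8 and 44.9%, and RING1B of both libraries at 15.8 and 12.4%. CBX8 of both libraries was at 6.65 and 4.50%, and H3K27me3 of both at 18.2 and 15.4%. All 5 shares were a little higher in genes with a region, and the differences were not tested. The 9232 genes are a smaller set than the genes without a region counted for the lists. The groups were also not matched for the number of distal H3K27ac peaks.

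The regions were unevenly spread over chromosomes. Chromosome 5 held 444 (13.0%), chromosome 10 held 212 and chromosome 19 held 237 (6.94%), and together these 3, singled out after their values were seen, held 893 (26.1%). They hold 14.5 and 15.7% of the distal acetylated peaks. On chromosome 10 a region was in only 4.31 and 4.64% of these peaks (H3K27ac replicates 1 and 2), near the 3.88 and 4.15% of all chromosomes. Chromosome 17, not singled out, had 4.96 and 5.47%. A region was in 9.05 and 9.80% of the distal acetylated peaks of chromosome 19 (H3K27ac replicates 1 and 2) and in 6.16 and 6.53% of those of chromosome 5, against 1.78 and 1.99% on chromosome 14. RING1B replicate 1 showed no such excess, at 0.17% of acetylated peaks on chromosome 19 and 0.21% on chromosome 5, where its share over all chromosomes was 0.38%. Among all distal peaks, the 3 chromosomes held 33.7% for RING1B replicate 2 and 31.9% for CBX8 replicate 1, both from line 2 at passage 19. They held 19.3% for H3K27ac replicate 1 and 17.3% for H3K27me3 replicate 2, from line 2 at earlier passages, and 15.3 to 18.9% for the 4 libraries of lines 1 and 3. Chromosome 5 alone held 15.0% for RING1B replicate 2 and 14.7% for CBX8 replicate 1. It also held 11.8% for CBX8 replicate 2, from line 3 at passage 14, and 7.29 to 8.91% for the other libraries. A high share on chromosome 5 was thus not confined to line 2 at passage 19. Antibody, line and passage cannot be told apart here, and their part in the excess was not tested. Nor was the DNA copy number of the cultures, which would bear on what the folds and counts on these chromosomes mean. Without the 3 chromosomes, 2523 regions remained, with a median fold of 4.37 and a RING1B replicate 1 peak over 6.14%. On the 3, the median fold was 4.12 and the share 2.13%. The counts for Med13l, Trim8 and Myof, all on chromosome 5 or 19, rest on these chromosomes, and those for Sox2, Maff, Nr4a1, Meis1, Bcor, Runx1, Ccnd1 and Rybp do not.

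**Figure D5:**
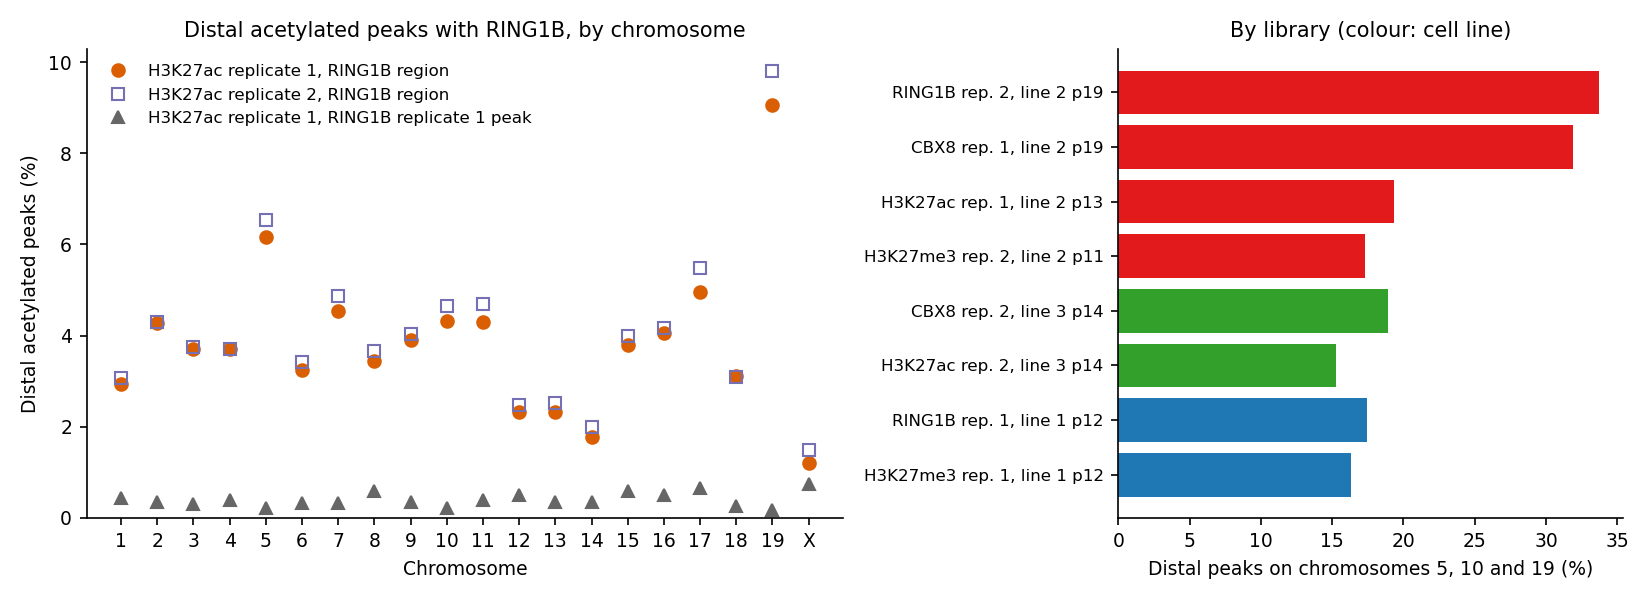
Left, percent of distal acetylated peaks of each chromosome that hold a RING1B region (filled circles, H3K27ac replicate 1; open squares, replicate 2) or a RING1B replicate 1 peak (triangles, H3K27ac replicate 1). Right, percent of the distal peaks of each library that lie on chromosomes 5, 10 and 19, coloured by cell line; RING1B replicate 2 and CBX8 replicate 1 reach 33.7 and 31.9% and the other 6 libraries 15.3 to 19.3%.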

How the data were processed

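The submitters' processing notes name MACS2 2.1.1.20160309, BWA 0.7.12, Trim Galore 0.4.3 and bcl2fastq 2.17, and mm10 as the genome build. What options were set, how duplicates were handled and which control served each list is not given in the sources used here. The 8 deposited lists, from single libraries per the labels, assign every peak to a transcript, as the authors annotated it. Peak names of both H3K27ac lists and of CBX8 replicate 2 contain the word combined, which no source explains, so those lists may hold pooled libraries. The value used is the authors' fold enrichment of each peak, a ratio taken as deposited. The −log10 q-values, also made by the authors' peak caller and deposited per peak, served only for stricter thresholds, and its −log10 p-values were not used. The score column that the authors' peak caller wrote, as deposited, was not used. The narrow lists of RING1B and CBX8 and the broad lists of the histone marks are on different fold scales. No read counts were at hand, so depth is unknown, and a site without a peak is one where none was listed, not one at 0.

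Overlaps of at least 1 bp were computed with pandas 2.3.3 and numpy 2.4.6 and checked against bedtools 2.31.1 on simulated data. For an overlapping mark, the highest fold of the peaks met is given. Genes are those of the authors' annotation. Starts, RefSeq windows and the 16 gene lists served for description only. The genes named are those of the 10 tallest regions in RING1B replicate 2, in the lower of both RING1B replicates and in H3K27ac, the 10 genes with most regions, up to 4 genes per list, and regions at the distance limit, in the widest H3K27ac peaks or farthest from a start; other genes were chosen after their values were seen. Some genes that this rule picks are not reported here, while all counts include them. Regions and lists were chosen with earlier results of these data known. With 2 libraries per antibody from different lines no test over samples was possible.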

Additional observations from a re-analysis of the deposited data

How the results depend on the processing

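Of 18 alternatives, the 2 that leave out chromosomes 5, 10 and 19 or add RefSeq starts were chosen after seeing the data. No paired analysis was possible because the results come from no test and replicate numbers do not mark the same culture across antibodies. With RING1B −log10 q of at least 5, 1575 regions remained, 9.52% overlapped RING1B replicate 1 and the median fold was 5.02. With H3K27ac −log10 q of at least 5 the overlap was 6.32%. Requiring over 5 kb from either end of every RefSeq gene left 2176 regions with an overlap of 4.32%. Without chromosomes 5, 10 and 19 the overlap was 6.14% and the median fold 4.37. Leaving out a library of H3K27ac, H3K27me3 or CBX8 gave 3474 to 4283 regions, an overlap of 4.20 to 5.32% and a median fold of 4.27. With RING1B replicate 1 in place of replicate 2 there were 296 regions. Their overlap of 63.5% is with replicate 2 and their median fold of 5.06 is that of replicate 1, so neither compares directly with the values above. Replicate 1 started from 7578 peaks against 32918, and the cause of the lower number was not tested. Without H3K27ac replicate 2 there were 4283 regions. The other settings kept the number within 1.5 times of 3416. Unknown depth limits what the low overlap between both RING1B libraries can show.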
